A study of Mus musculus with 7 samples.

Results

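The genes described here encode the chaperones and signalling factors with which a cell answers misfolded protein: cytosolic and mitochondrial heat shock proteins, chaperones of the endoplasmic reticulum (ER), and the factors of the unfolded protein response and the integrated stress response. They were chosen by name, as genes that respond when proteasomes are blocked. The rule uses no measured value, but it was set with earlier results of these data known. All 46 chosen genes were matched among the 55416 gene identifiers of the series. Of them, 44 had enough counts for testing, whereas Hspa1a and Trib3 did not.

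RNA from the hippocampus of age-matched male mice of the outbred CD1 stock was sequenced in 7 libraries, 3 from untreated controls, 2 from mice given DMSO and 2 from mice given ONX-0914. ONX-0914 is a peptide epoxyketone that inhibits the immunoproteasome, the form of the proteasome with inducible catalytic subunits. It was injected into the abdominal cavity at 10 mg/kg, 2 times a week for 2 months, and the DMSO group received the same volume of DMSO on that schedule. The controls were not injected, so an effect of DMSO and an effect of the injections cannot be told apart, and ONX-0914 has its matched comparison in the DMSO group.

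Each library held 2842675 to 3877006 counts on genes, except the replicate 2 library of the ONX-0914 group with 13782270. The replicate 1 library of that group goes against its tissue label. Its 10 hippocampal marker genes summed to 327 CPM (counts scaled to a common library size), against 1380 to 1420 CPM in the 5 libraries without ONX-0914 and 1180 CPM in replicate 2. Its 13 thalamic and midbrain markers summed to 1400 CPM against 129 to 191 CPM in the 6 other libraries, and its 10 striatal markers to 1390 CPM against 211 to 274 CPM. ONX-0914 replicate 2 stood apart in blood markers, whose 5 genes summed to 837 CPM against 30.0 to 96.4 CPM elsewhere. In it 3.71% of the counts were mitochondrial against 0.818% to 1.59%. Its hippocampal markers differed from control as well, although their sum was near it. Of the 10, 7 were under all controls in replicate 2, and 2, Wfs1 and Mpped1, were above them. The results on ONX-0914 are therefore also given without each of these libraries, and in bulk tissue fewer cells of a type and less RNA per cell cannot be told apart.

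Heat shock transcription factor Hsf1 drives the cytosolic response, in which Hsp70, Hsp90 and their J-domain and small partners are made to hold and refold damaged proteins. In the ER, the sensors Ern1 (IRE1), Eif2ak3 (PERK) and Atf6 detect unfolded proteins and raise ER chaperones, folding enzymes and the machinery that exports and degrades proteins that fail to fold. PERK also lowers translation through eIF2, and this integrated stress response works through Atf4 and its targets. Proteasome inhibitors are known to set off these responses in cultured cells, since undegraded proteins accumulate. In brain, many of the chaperones are abundant in neurons without any stress, while Cryab is a protein of glia.

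The genes covered a wide range of levels in the untreated hippocampus, compared here per exon length as RPKM, the CPM divided by the exon length in kilobases. The cytosolic Hsp90 Hsp90ab1 had the highest level, 1485 ± 84.7 RPKM (SD, n = 3), followed by its inducible relative Hsp90aa1 at 376 ± 9.42 and the calcium-binding ER chaperone Calr at 297 ± 17.7. The ER Hsp70 Hspa5 stood at 83.1 ± 5.73 RPKM and the constitutive cytosolic Hsp70 Hspa8 at 77.3 ± 8.09, and their values in the 3 control libraries overlapped. The stress-inducible Hsp70 genes were near the lower end, Hspa1b at 2.43 ± 0.318 RPKM and Hspa1a at 0.364 ± 0.323. Trib3, a pseudokinase induced late in ER stress, was the lowest, with 0 to 5 counts in each library. Its level in 3 of the 7 libraries was a count of 0, which allows up to 0.805 to 1.07 CPM in these libraries (3 counts, counting error only).

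**Figure D1:**
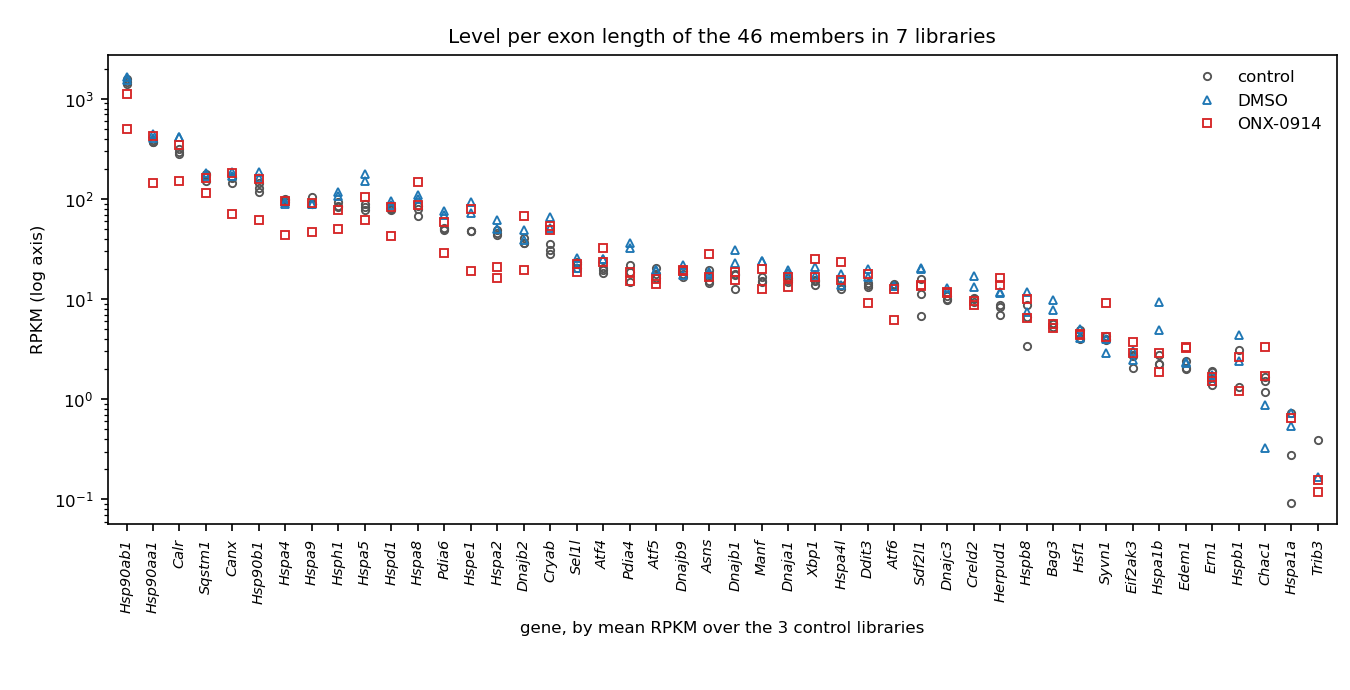
Level of the 46 genes in each of the 7 libraries in RPKM on a log axis, ordered by the mean of the 3 control libraries; circles are control, triangles DMSO and squares ONX-0914 libraries, and 5 values of 0 cannot be shown. The genes run from Hsp90ab1 to Trib3, with one ONX-0914 library well under the others for many of the abundant chaperones.

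Promoters of 38 of the 46 genes were found in the RefSeq table of the GRCm38.p6 assembly, each covering 250 bases before and 50 bases after a start site, and those of Atf6, Cryab, Hsf1, Hsp90aa1, Hsp90ab1, Hspa8, Hspa9 and Manf were not used. The ER stress element, through which Atf6 and Xbp1 are known to act, was searched on both strands as CCAAT and CCACG with 9 bases of any kind between them. It was present in the promoters of 8 of the 38 genes, and in those of 37 of all 27025 genes (0.137%). Counted per promoter, it was in 39 of all 32851 promoters of that length (0.119%). The sites are shown because most of these genes belong to the ER group, which is described next; each is written 5′ to 3′ along the strand that spells the element, with its fixed letters in capitals.
Calr: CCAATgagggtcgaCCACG
Canx: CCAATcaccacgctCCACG
Creld2: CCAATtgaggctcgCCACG
Dnajc3: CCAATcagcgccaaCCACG
Hsp90b1, distal site: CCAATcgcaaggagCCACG
Hsp90b1, proximal site: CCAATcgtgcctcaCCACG
Hspa5: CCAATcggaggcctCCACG
Pdia6: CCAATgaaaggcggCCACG
Syvn1: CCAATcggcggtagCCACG
The site of Hspa5 began 65 bases before the start, that of Pdia6 98 bases, that of Dnajc3 105 bases and those of Hsp90b1 212 and 107 bases before it. Of these genes, Syvn1 alone is not an ER chaperone or folding factor but a ubiquitin ligase of ER-associated degradation.

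The 250 bases before the start of Hspa5, on the plus strand of GRCm38.p6 at chr2:34771840-34772089, are given with the ER stress element in capitals, since Hspa5 is the usual readout of ER stress and had the lowest p of the 46 genes when DMSO and control libraries were fitted alone.
Hspa5 promoter: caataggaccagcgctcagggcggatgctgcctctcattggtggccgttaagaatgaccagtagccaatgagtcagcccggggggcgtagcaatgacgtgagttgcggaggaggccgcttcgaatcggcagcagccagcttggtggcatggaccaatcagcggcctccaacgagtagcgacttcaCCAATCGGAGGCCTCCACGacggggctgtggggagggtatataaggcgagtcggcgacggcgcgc
A second ER stress element, ATTGG and CCACG with 1 base between them on both strands, was present in 12 of all promoters (0.0365%) and in that of Herpud1, where the letters ATTGGgCCACG began 52 bases before the start. The heat shock element, to which Hsf1 binds, was searched on both strands as GAA, TTC and GAA with 2 bases between each. The element was in 198 of all promoters (0.603%), those of 179 of all 27025 genes (0.662%). It was found in 3 of the genes, Hsph1 and the neighbours Hspd1 and Hspe1, which are transcribed away from each other from a shared promoter region on chromosome 1. In the direction of Hspe1, this region held 2 overlapping heat shock elements, the first 89 bases before the start. The first is spelled on the strand opposite to Hspe1 and the second on the strand of Hspe1. Each is written 5′ to 3′ along the strand that spells it.
Hspe1, first element: GAAggTTCtaGAA
Hspe1, second element: GAAccTTCcgGAA
The amino acid response element TGATGNAAT, a site of Atf4, was in 0 of the promoters of the genes and in 317 of all promoters (0.965%). A match describes letters and is not evidence of binding, and the windows leave out more distant elements.

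Between DMSO and control libraries, the ER chaperones were higher in DMSO as a group. All 11 of them had a positive log2 fold change, with a median of 0.53, whereas over all 13152 genes tested the median was 0.00 and 49.5% were positive. Of all 44 genes tested here 38 were positive, with a median of 0.28. In the fit of all 7 libraries, 0 of the 44 genes passed an adjusted p of 0.05 (edgeR quasi-likelihood test, background 0.0152% of all genes), and 10 had an unadjusted p under 0.05, all 10 higher in DMSO (background for higher 1.48%). DESeq2, which called 0.0186% of all genes, called 0 on the 7 libraries as well. With limma voom 0 of all 13152 genes were called, so its 0 is not particular to the genes described here. Nothing in the labels says that the libraries of a group come from separate mice, so the p-values measure the spread between these samples, which may be technical. When the 5 control and DMSO libraries were fitted without the ONX-0914 libraries, 11 of 43 genes passed the same threshold (called, in what follows), all 11 higher in DMSO, against 0.717% of all genes tested in that direction and 1.11% in either.

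Hspa5 (ENSMUSG00000026864), the ER Hsp70 BiP, had 375, 352 and 327 CPM in the control libraries, 746 and 638 CPM in the DMSO libraries and 439 and 261.5 CPM in the ONX-0914 libraries. Both DMSO values lay above all 5 others. Its log2 fold change between DMSO and control was 0.98 with an SE of 0.236 in the fit of 7 libraries (adjusted p = 1.0, edgeR), and 0.98 with an SE of 0.0968 in the fit of 5 libraries (adjusted p = 4.06e-06, edgeR). Pdia4 (ENSMUSG00000025823), a disulfide isomerase of the ER, stood at 53.1, 44.7 and 35.5 CPM in control, 86.9 and 77.5 CPM in DMSO and 44.3 and 36.5 CPM in ONX-0914. Here too the DMSO libraries did not overlap with any other library, and the log2 fold change was 0.89 with an SE of 0.211 in the fit of 7 libraries (adjusted p = 1.0, edgeR). In the fit of 5 libraries it was 0.90 with an SE of 0.147 (adjusted p = 0.00189, edgeR).

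Of the 9 other ER chaperones and folding factors, 4 were called in the fit of 5 libraries. Calr had 911, 811 and 843.5 CPM in control against 1202 and 1200 CPM in DMSO. Manf, a secreted ER-resident survival factor, had 58.8, 53.7 and 52.3 CPM against 84.0 and 85.3 CPM. Pdia6, a disulfide isomerase, had 192, 189 and 181.5 CPM against 256.5 and 283 CPM. These 3 genes, and the fourth, Hsp90b1 (the ER Hsp90, 478 to 581.5 CPM in control and 659 and 757.5 CPM in DMSO), had log2 fold changes of 0.43 for Hsp90b1 to 0.63 for Manf and adjusted p from 0.00509 to 0.0375 (edgeR). They are named here after their values were seen. Sdf2l1, part of an ER chaperone complex with Hspa5, had 7.43 to 17.5 CPM in control and 22 and 22.9 CPM in DMSO, a log2 fold change of 0.88 with an SE of 0.253 in the fit of 5 libraries that was not called (adjusted p = 0.101, edgeR). Creld2, an ER protein with isomerase activity, had 12.8 to 14.2 CPM and 18.0 and 23.2 CPM. Dnajb9 and Dnajc3, J-domain partners of Hspa5, and the lectin chaperone Canx had log2 fold changes of 0.14, 0.28 and 0.17.

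**Figure D2:**
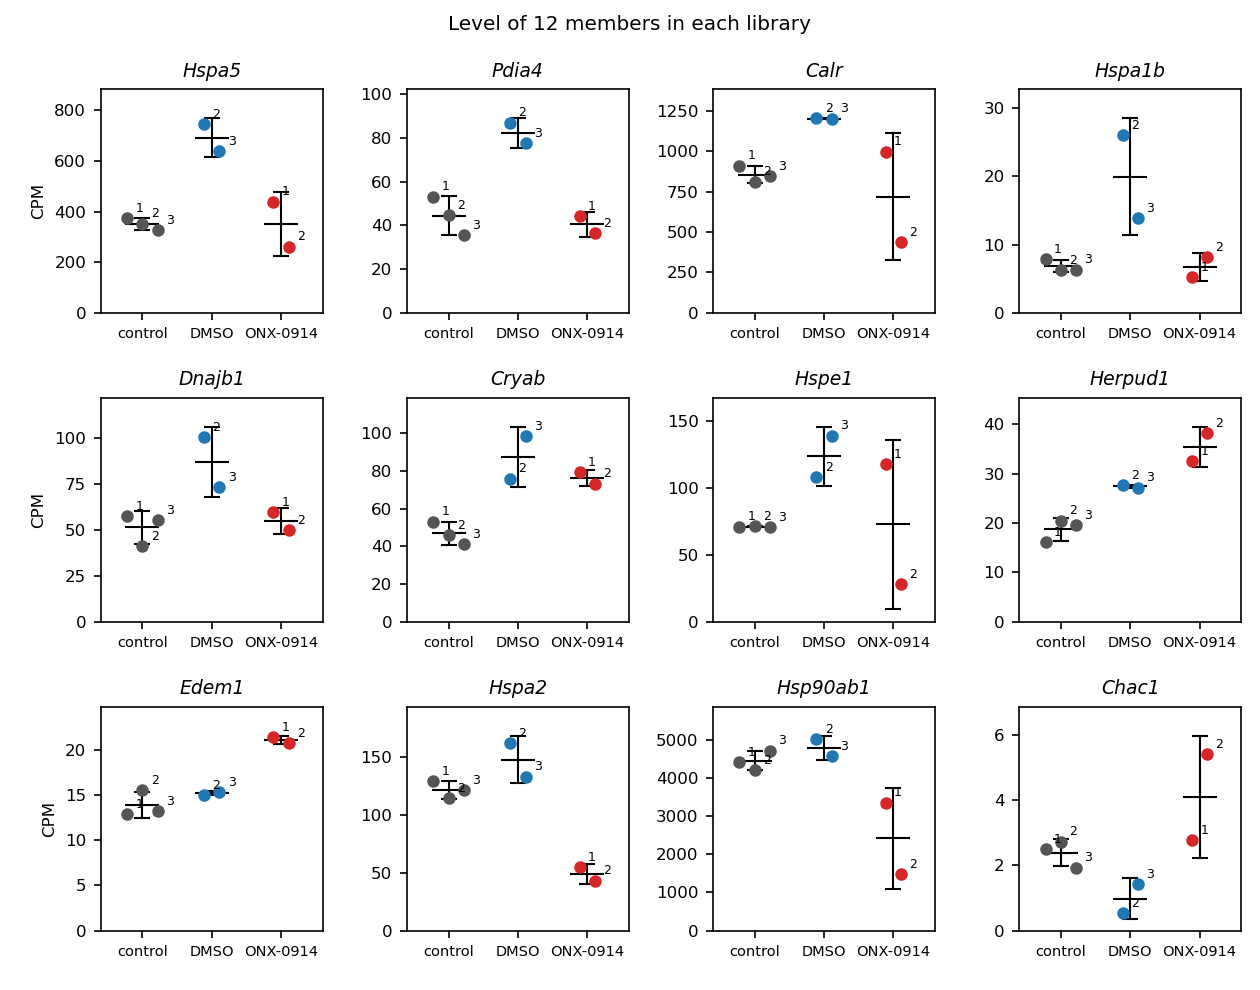
Level in CPM of 12 of the genes in each library, picked after their values were seen; points are libraries with their replicate number, the dash is the group mean and bars are ± 1 SD (control n = 3, DMSO n = 2, ONX-0914 n = 2). For Hspa5, Pdia4, Calr and Hspa1b the DMSO points lie above all others, while the ONX-0914 points of Hspe1, Calr and Hsp90ab1 lie far apart.

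Of the cytosolic genes, Hspa1b, Hspa8, Dnajb1 and Cryab were called between DMSO and control in the fit of 5 libraries. Hspa1b (ENSMUSG00000090877), a stress-inducible Hsp70, had 7.84, 6.27 and 6.33 CPM in control, 26.0 and 13.9 CPM in DMSO and 5.29 and 8.19 CPM in ONX-0914. The DMSO libraries were above all others, and the log2 fold change to control was 1.57 with an SE of 0.351 (adjusted p = 1.0, edgeR, 7 libraries). With the ONX-0914 libraries left out of the fit it was 1.61 with an SE of 0.282 (adjusted p = 0.00467, edgeR). Its paralog Hspa1a had 1 to 6 counts in control, 6 in each DMSO library and 0 and 29 in ONX-0914, and was not tested. Of the 100-base windows of Hspa1b transcripts, 49.9% also occur in other genes, mainly Hspa1a, so the split of reads between both genes is uncertain.

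Dnajb1, the J-domain partner of inducible Hsp70, had 57.4, 40.9 and 55.3 CPM in control and 100.1 and 73.2 CPM in DMSO. Cryab, a small heat shock protein, had 53.1, 46.1 and 41.3 CPM in control, 75.9 and 98.5 CPM in DMSO and 79.3 and 73.2 CPM in ONX-0914, so that both treated groups lay above control. Between DMSO and control its log2 fold change was 0.90 with an SE of 0.191 in the fit of 7 libraries (adjusted p = 1.0, edgeR) and 0.89 with an SE of 0.143 in that of 5 libraries (adjusted p = 0.00164, edgeR). Oligodendrocyte markers, 9 genes, summed to 5070 to 7630 CPM in control, 7900 and 9330 CPM in DMSO and 9980 and 4510 CPM in ONX-0914, and their part in the Cryab values was not tested. Hspe1, the mitochondrial co-chaperonin Hsp10, had 71.0, 71.2 and 70.8 CPM in control and 108 and 139 CPM in DMSO, a log2 fold change of 0.79 in the fit of 5 libraries (adjusted p = 0.0013, edgeR). Its partner Hspd1, the chaperonin Hsp60 that shares the promoter region described above, had 204 to 213 CPM in control and 252 and 233 CPM in DMSO. Both were above all control libraries in DMSO, while the mitochondrial Hsp70 Hspa9 was not, with 383 to 454 CPM in control and 384 and 387 CPM in DMSO.

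Hspa8, with 362, 294 and 341 CPM in control and 468 and 433 CPM in DMSO, had a log2 fold change of 0.44 in the fit of 5 libraries (adjusted p = 0.033, edgeR). Hsph1, the Hsp110 that recharges Hsp70, had 684, 608.5 and 625 CPM in control and 858 and 784 CPM in DMSO, above all controls, but was not called in that fit (log2 fold change 0.36, adjusted p = 0.0578, edgeR), whereas DESeq2 and limma voom on the same 5 libraries called it. The small heat shock protein Hspb1 had a large log2 fold change of 1.38 with an SE of 0.677 on few counts (adjusted p = 0.347, edgeR), and its 4.561 and 2.499 CPM in DMSO overlapped with 3.21, 1.36 and 0 CPM in control. Hspb8, another of this family, had 17.1, 12.8 and 6.61 CPM in control and 14.5 and 23.2 CPM in DMSO, which overlapped. Bag3, a co-chaperone that links Hsp70 to autophagy, had 13.4 to 14.9 CPM in control and 19.9 and 25.0 CPM in DMSO (log2 fold change 0.65, unadjusted p = 0.0184 in the fit of 7 libraries, edgeR). Hsp90aa1 and Hsp90ab1 had log2 fold changes of 0.17 and 0.11, and Hsf1 itself one of 0.07. Sqstm1, the autophagy receptor p62, had 510 to 599 CPM in control and 611 and 573 CPM in DMSO.

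None of the genes that signal ER stress or act late in it was called between DMSO and control (edgeR). This held in the fits of 7 and of 5 libraries, which called 0.0152% and 1.11% of all genes. For so few genes, the absence of calls is therefore not particular to them. Xbp1, Atf4 and Ddit3 were above all controls in both DMSO libraries, where 15.7% of all genes tested were. Xbp1, the factor that IRE1 activates, had 48.8, 50.7 and 45.4 CPM in control and 67.6 and 55.3 CPM in DMSO (log2 fold change 0.35, adjusted p = 1.0, edgeR, 7 libraries). Atf4, the transcription factor of the integrated stress response, had 47.8, 45.8 and 43.2 CPM in control and 58.8 and 58.9 CPM in DMSO (log2 fold change 0.37, SE 0.190, adjusted p = 1.0, edgeR). Ddit3, the factor CHOP that favours cell death in lasting ER stress, had 24.96, 22.63 and 23.96 CPM in control and 28.2 and 34.6 CPM in DMSO (log2 fold change 0.39, SE 0.294, adjusted p = 1.0, edgeR). The sensor genes Ern1, Eif2ak3 and Atf6 had log2 fold changes of -0.08, 0.14 and -0.04. Chac1, an enzyme that degrades glutathione and a target of Atf4, was the only one of the 44 with both DMSO libraries under all controls, at 2 and 4 counts against 7, 10 and 7 (log2 fold change -1.34, SE 0.716, adjusted p = 1.0, edgeR), and it had too few counts for the fit of 5 libraries. Sensor activation, the unconventional splicing of Xbp1 and the translation of Atf4 are not seen in counts per gene.

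Both DMSO libraries were above all 3 control libraries for 25 of the 44 genes, where 15.7% of all genes tested were, and under them for 1, where 15% were. Against all 5 other libraries together, both DMSO libraries were the highest for 16 of the 44 genes (background 6.26%). The 11 calls of the fit without ONX-0914 libraries were also the 11 calls when either ONX-0914 library alone was left out, with a background for higher of 0.627% without replicate 1 and 0.704% without replicate 2. Their number depended on single libraries. It was 8, 6 and 8 without control replicates 1, 2 and 3, where 0.6%, 0.448% and 0.553% of all genes were called, and 7 and 5 without DMSO replicates 2 and 3, where 1.13% and 0.418% were. Hspa5 and Pdia4 were called in each of these 5 fits. The common biological coefficient of variation over all 7 libraries was 0.249. Immediate early genes, which neurons switch on with activity or handling, moved with the DMSO group: 10 such genes summed to 861 and 701 CPM in DMSO, 261 to 334 CPM in control and 165 and 335 CPM in ONX-0914, and 9 of the 10 were above all controls in each DMSO library. Their part in the chaperone levels was not tested.

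**Figure D3:**
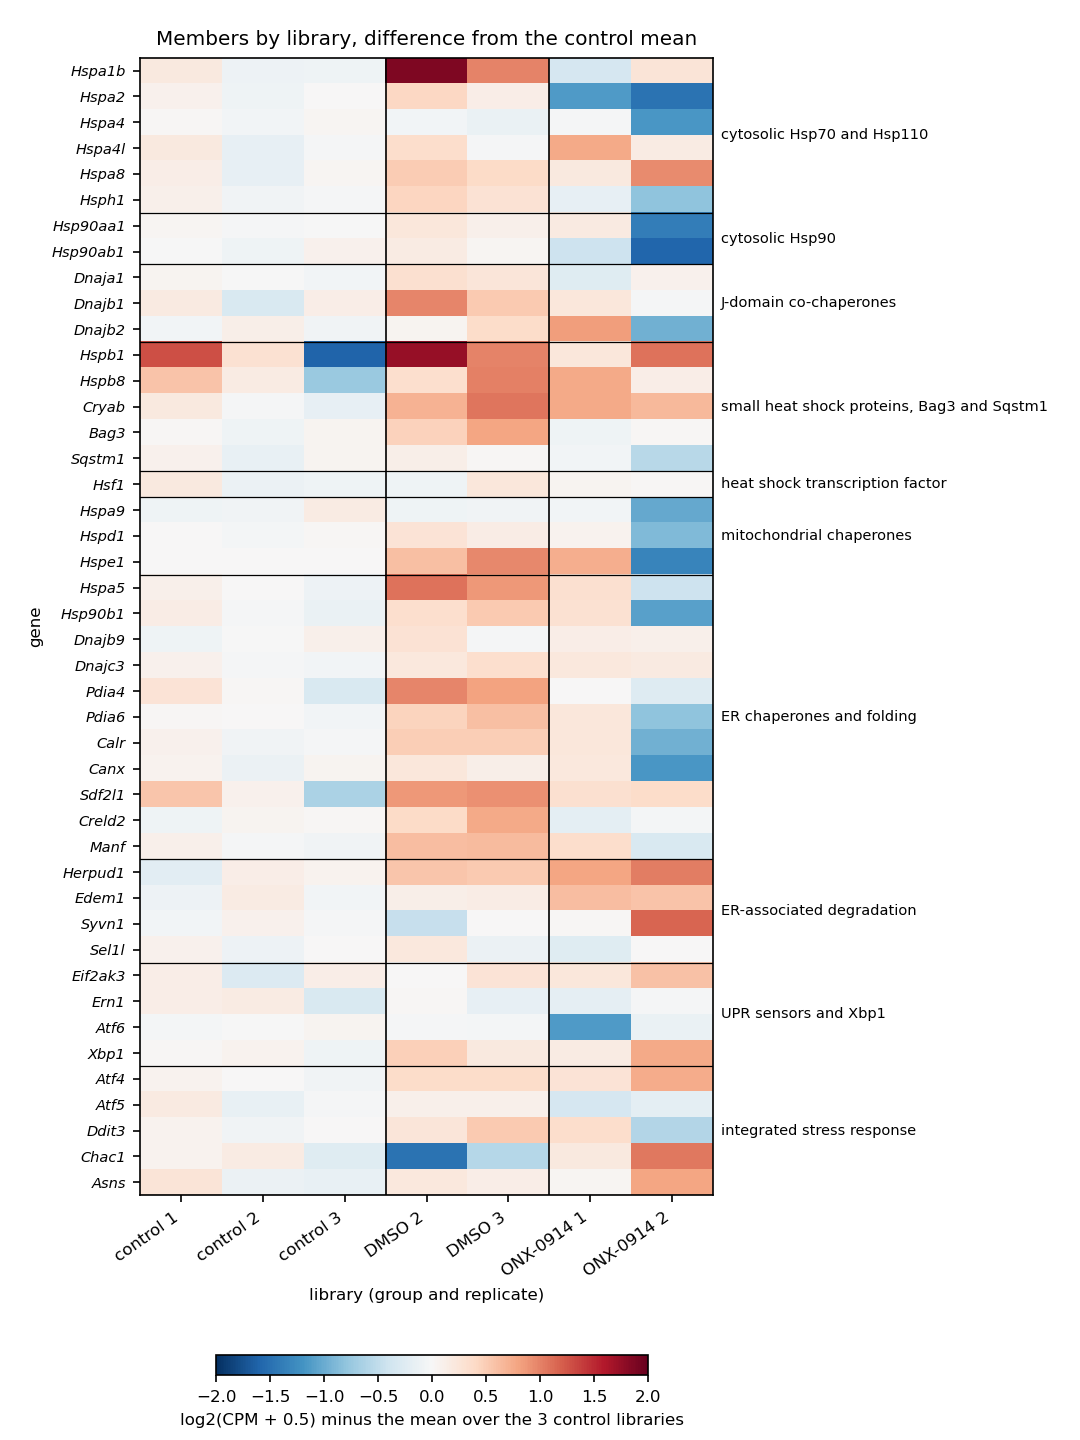
Difference of each of the 44 tested genes from the mean of the 3 control libraries, as log2(CPM + 0.5), by library and role; red is higher and blue lower, and the scale runs from -2 to 2. The DMSO columns are mostly red in the ER chaperones, and the column of ONX-0914 replicate 2 is blue in the Hsp90, mitochondrial and ER chaperones and red in ER-associated degradation, Xbp1, Atf4, Chac1 and Asns.

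Between ONX-0914 and control, the 44 genes showed no common direction. There were 22 positive and 22 negative log2 fold changes with a median of 0.01, beside 0.05 over all genes tested, of which 53.8% were positive. In the fit of 7 libraries 0 of the 44 passed an adjusted p of 0.05 (edgeR, background 0.114%), and 8 had an unadjusted p under 0.05, where 18.6% of all genes did. Of these 8, 6 were higher (background 10.6%) and 2 lower (background 8.04%). DESeq2 called 1 of 44, Hspa2, where it called 2.74% of all genes. Both ONX-0914 libraries were above all controls for 9 genes (background 16.9%) and under them for 5 (background 16.3%).

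The lowest p belonged to Hspa2 (ENSMUSG00000059970), an Hsp70 best known from male germ cells that is also expressed in brain. It had 129, 114.5 and 122 CPM in control, 163 and 133.5 CPM in DMSO and 55.1 and 43.2 CPM in ONX-0914. Both ONX-0914 libraries were under all 5 others, and the log2 fold change to control was -1.32 with an SE of 0.190 (adjusted p = 0.051, edgeR). Without ONX-0914 replicate 1 it was -1.50 and without replicate 2 -1.15, each time with a single ONX-0914 library left. Hsp90ab1, the constitutive Hsp90, was lower too, with 4420, 4216 and 4721 CPM in control and 3355 and 1489 CPM in ONX-0914 (log2 fold change -0.88, SE 0.358, adjusted p = 0.243, edgeR). Hsph1 had 684, 608.5 and 625 CPM in control and 566 and 367 CPM in ONX-0914 (log2 fold change -0.46, SE 0.224, adjusted p = 0.309, edgeR).

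In other cytosolic chaperones the ONX-0914 libraries were higher or gave no direction. Hspa8 had 378 and 635 CPM in ONX-0914 against 294 to 362 CPM in control (log2 fold change 0.61, SE 0.237, adjusted p = 0.23, edgeR), so that the difference rested mostly on replicate 2. For Hspa4l, a relative of Hsp110, it rested on replicate 1, with 278 and 183 CPM against 147 to 187 CPM in control (log2 fold change 0.48, SE 0.228, adjusted p = 0.295, edgeR). Cryab had similar levels in both ONX-0914 libraries, a log2 fold change of 0.70 with an SE of 0.190 (adjusted p = 0.141, edgeR). The inducible Hspa1b did not differ from control beyond the spread (log2 fold change 0.05, SE 0.360, adjusted p = 0.954, edgeR). Dnajb1 had 59.7 and 49.8 CPM in ONX-0914, and Bag3 13.3 and 14.5 CPM, both close to their control levels. Counts of Hspa8, Hsp90aa1, Hspb1, Hspd1 and Dnaja1 are less certain, since 16.6% to 44.0% of their 100-base windows occur in other annotated genes.

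The genes of ER-associated degradation were higher in both ONX-0914 libraries in part. Herpud1, an ER membrane protein that gathers the degradation complex, had 16.04, 20.45 and 19.55 CPM in control, 27.6 and 27.1 CPM in DMSO and 32.5 and 38.2 CPM in ONX-0914. The 3 groups did not overlap, and the log2 fold change of ONX-0914 to control was 0.92 with an SE of 0.197 (adjusted p = 0.10, edgeR). It was 1.01 without ONX-0914 replicate 1 (adjusted p = 5.45e-05, edgeR) and 0.78 without replicate 2 (adjusted p = 0.0102, edgeR). Edem1, which directs misfolded glycoproteins to degradation, had 12.8, 15.5 and 13.2 CPM in control, 15.02 and 15.35 CPM in DMSO and 21.4 and 20.8 CPM in ONX-0914 (log2 fold change 0.60, SE 0.206, adjusted p = 0.196, edgeR). Syvn1, the ubiquitin ligase Hrd1, was high in replicate 2 alone, with 20.1 and 44.9 CPM in ONX-0914 and 18.90 to 20.99 CPM in control (log2 fold change 0.75, SE 0.328, adjusted p = 0.271, edgeR). Its adaptor Sel1l had 158 and 191 CPM against 177 to 201 CPM.

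Of the sensors and factors, Eif2ak3, Xbp1 and Atf4 were above all controls in both ONX-0914 libraries, and Atf6 and Atf5 were under them. Atf5, another factor of the integrated stress response, had 41.0, 32.45 and 35.5 CPM in control and 28.4 and 31.4 CPM in ONX-0914. Eif2ak3 had 16.4, 12.3 and 16.5 CPM in control, 15.02 and 18.2 CPM in DMSO and 17.6 and 22.7 CPM in ONX-0914. Xbp1 had 48.8, 50.7 and 45.4 CPM in control, 67.6 and 55.3 CPM in DMSO and 53.9 and 82.0 CPM in ONX-0914 (log2 fold change 0.50, SE 0.215, adjusted p = 0.266, edgeR). Atf4 had 55.4 and 76.3 CPM in ONX-0914, a log2 fold change of 0.54 with an SE of 0.186 (adjusted p = 0.199, edgeR). Replicate 1 of ONX-0914 lay under both DMSO libraries for Xbp1 and for Atf4. The log2 fold changes of Xbp1 and Atf4 to control were 0.75 and 0.73 without replicate 1. Without replicate 2 they were 0.15 and 0.28. Each of these fits kept a single ONX-0914 library. The sensor Atf6 had 124 to 132 CPM in control and 57.6 and 116 CPM in ONX-0914 (log2 fold change -0.54, SE 0.271, adjusted p = 0.315, edgeR). Its lower value belonged to replicate 1, the library with the lowest sum of hippocampal markers. Ddit3 had 30.5 and 15.7 CPM in ONX-0914, one value above and one under the controls (log2 fold change -0.08, SE 0.292, adjusted p = 0.897, edgeR). Chac1 had 11 and 82 counts in ONX-0914, or 2.77 and 5.42 CPM against 1.93 to 2.73 CPM in control. Asns, which makes asparagine and is a target of Atf4, had 45.6 and 76.9 CPM against 39.9 to 53.1 CPM.

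For 13 of the 44 genes the 2 ONX-0914 libraries lay on opposite sides of all controls, where 23.4% of all genes tested did. In 11 of these 13, replicate 1 was above and replicate 2 under all controls (background 12.6%), among them the ER chaperones Hspa5, Hsp90b1, Pdia6, Calr, Canx and Manf. Hspa5 therefore had a mean that did not differ from control beyond the spread, with a log2 fold change of -0.01 and an SE of 0.239 (adjusted p = 0.991, edgeR). Hspe1 was the widest of these, with 117.5 CPM in replicate 1 and 28.2 CPM in replicate 2. Hsp90aa1 had 1681 and 569 CPM, against 1449 to 1521 CPM in control. ONX-0914 replicate 2 was under all 6 other libraries for 17 of the 44 genes (background 29.2%) and above them for 8 (background 30.3%), which were Hspa8, Herpud1, Syvn1, Eif2ak3, Xbp1, Atf4, Chac1 and Asns. The 46 genes together took 7012 CPM in that library, against 12330 to 13300 CPM in control, 15660 and 14760 CPM in DMSO and 12670 CPM in ONX-0914 replicate 1. Blood markers and the mitochondrial share were highest in the same library, and their part in these values was not tested.

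**Figure D4:**
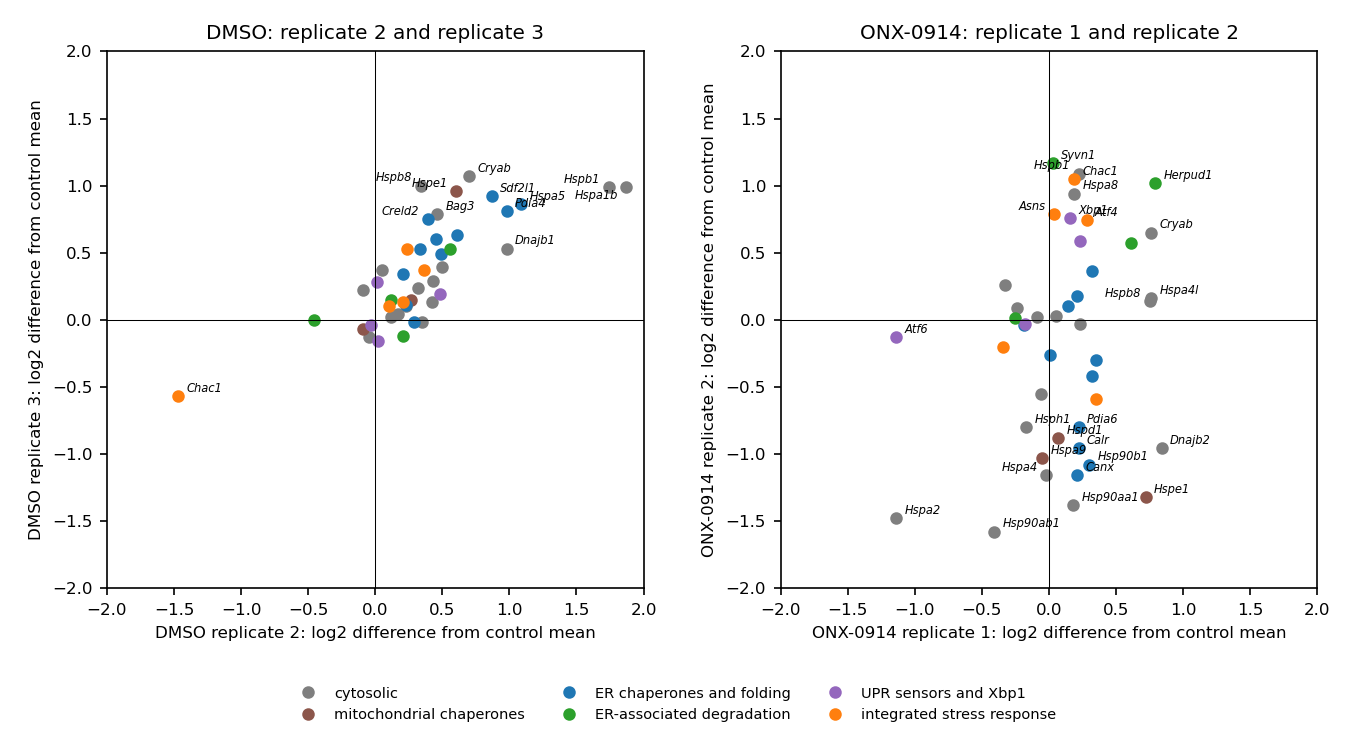
Difference from the control mean, as log2(CPM + 0.5), of the 44 tested genes in one replicate against the other, for DMSO (left) and ONX-0914 (right), coloured by role and named where a difference exceeds 0.7. In DMSO most genes sit in the upper right corner, and in ONX-0914 many of the ER and mitochondrial chaperones sit right of 0 for replicate 1 but under 0 for replicate 2.

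Leaving out an ONX-0914 library leaves 1 library in that group, which is then assumed to vary like the other groups. Without replicate 1, 26 of the 44 genes were called between ONX-0914 and control, 10 higher (background 24.8%) and 16 lower (background 26.4%), when 51.2% of all genes were called. Without replicate 2, 8 were called, 5 higher (background 9.52%) and 3 lower (background 9.5%), when 19.0% of all genes were. Hspa2 and Hsp90ab1 were called lower, and Cryab and Herpud1 higher, in both of these fits, which share their control libraries, whereas Dnajb2 and Hspe1 were called lower without replicate 1 and higher without replicate 2. The ER chaperones had a median log2 fold change of -0.31 without replicate 1 and 0.22 without replicate 2, whereas ER-associated degradation had medians of 0.79 and 0.32. The integrated stress response genes had medians of 0.73 and 0.21.

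Between ONX-0914 and DMSO, the comparison of the inhibitor with its vehicle, most of the genes were lower in ONX-0914. There were 34 negative and 10 positive log2 fold changes with a median of -0.38, beside 0.05 over all genes tested, of which 46.2% were negative, and all 11 ER chaperones were negative with a median of -0.67. In the fit of 7 libraries 0 of 44 were called (edgeR, background 0.0456%), and 13 had an unadjusted p under 0.05, where 14.7% of all genes did. Of these 13, 11 were lower (background 6.65%) and 2, Syvn1 and Chac1, higher (background 8.08%). DESeq2 called 3 of 42, Hspa2, Hspa5 and Pdia4, where it called 1.82% of all genes. The ONX-0914 libraries were under both DMSO libraries for 20 genes (background 19.7%) and above them for 4, Herpud1, Edem1, Syvn1 and Chac1 (background 20.8%).

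Hspa2 had the lowest p here as well, with a log2 fold change of -1.60 and an SE of 0.204 (adjusted p = 0.0525, edgeR). For Pdia4 the log2 fold change was -1.03 with an SE of 0.234 (adjusted p = 0.152, edgeR), for Hspa1b -1.52 with an SE of 0.368 (adjusted p = 0.171, edgeR) and for Hspa5 -0.98 with an SE of 0.264 (adjusted p = 0.199, edgeR). The values per library given above show that the ONX-0914 libraries of Pdia4 and Hspa1b were near control and those of DMSO high, whereas Hspa2 was above all controls in both DMSO libraries and under them in both ONX-0914 libraries. All 4 genes were called without either ONX-0914 library, Hspa5 at -1.41 without replicate 1 and -0.66 without replicate 2. Atf4 and Ddit3 had log2 fold changes of 0.17 (SE 0.205, adjusted p = 0.692, edgeR) and -0.48 (SE 0.318, adjusted p = 0.481, edgeR). Of the 11 ER chaperones, 11 were negative without replicate 1 (median -1.19) and 10 without replicate 2 (median -0.28). Without replicate 1, 29 of the 44 genes were called, when 46% of all genes were, and without replicate 2, 10 were, when 17% were.

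A further 86 genes of the same responses, none of them among the 46, were followed to see whether the pattern extended to them. They are cofactors, ER proteins and Atf4 targets listed by name. Of these, 80 were tested and 0 were called in any of the 3 comparisons of the 7 libraries (edgeR). Those comparisons called 0.114% of all genes between ONX-0914 and control, 0.0152% between DMSO and control and 0.0456% between ONX-0914 and DMSO. The 0 is therefore not particular to the 80. An unadjusted p under 0.05 was found for 12 between ONX-0914 and control (background 18.6%). It was found for 3 between DMSO and control (background 2.65%) and for 9 between ONX-0914 and DMSO (background 14.7%). As shares of the 80 these are 15%, 3.75% and 11.2%, of which the first and the last are under the background. The 3 between DMSO and control were all higher in DMSO, and the background for higher was 1.48%. DESeq2 called 1, Dnajb5, between ONX-0914 and control (background 2.74%), 0 between DMSO and control (background 0.0186%) and 3 of 79, Dnaja4, Dnajb5 and Ddit4, between ONX-0914 and DMSO (background 1.82%). Between DMSO and control 56 were higher and 24 lower with a median log2 fold change of 0.12, and both DMSO libraries were above all controls for 30 of the 80, against 15.7% of all genes. The fit of 5 libraries called 4 of the 80, where 0.717% of all genes were called higher, all 4 higher in DMSO and named after their values were seen: the Hsp90 cofactor Chordc1, the J-domain protein Dnaja4, the disulfide isomerase Pdia3 and Ddit4, an inhibitor of mTOR induced by Atf4. Ddit4 had 101, 118 and 86.2 CPM in control, 158 and 172 CPM in DMSO and 71.0 and 34.9 CPM in ONX-0914.

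Between ONX-0914 and control 33 of the 80 were higher and 47 lower, with a median of -0.06. The 5 with the lowest p were Dnajb5, a neuronal J-domain protein (log2 fold change -0.78, SE 0.166, adjusted p = 0.0992, edgeR), the Hsp70 nucleotide exchange factor Hspbp1 (1.04), the cystine transporter Slc7a11 (0.62), Ddit4 (-0.96) and Dnaja4 (-0.95). Dnajb5 had 232, 257 and 229 CPM in control, 272 and 278 CPM in DMSO and 128 and 151 CPM in ONX-0914, with no overlap between ONX-0914 and the other libraries. Hspbp1 had 17.7 to 23.5 CPM in control and 31.7 and 55.6 CPM in ONX-0914.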

How the data were processed

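Counts per gene were deposited, as whole numbers that the authors obtained from RNA of the hippocampus, sequenced as 100-base single-end reads from a directional kit. The submitters' processing notes name Trimmomatic 0.39, STAR 2.7.3a, featureCounts 2.00 and the GRCm39 build. The annotation release and the strand setting are not given in the sources used here. Unassigned reads stayed out of library sizes. They were 4.75% to 6.49% without a feature and 3.75% to 3.92% ambiguous, so that reads of overlapping genes are lost. Symbols came from GENCODE M21 and covered 52083 identifiers with 99.8% of the counts. Exon lengths for RPKM came from the same annotation.

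Genes were tested in R 4.3.3 with the edgeR 4.0.16 quasi-likelihood test (TMM scaling, filterByExpr, 1 mean per group, all 7 libraries, Benjamini-Hochberg adjustment over 13152 genes, called under 0.05). Fold changes used a prior count of 0.125, and differences per library a pseudocount of 0.5. DESeq2 1.42.0, limma 3.58.1 voom, other scalings and filters, fits of the compared groups alone, a replicate block and leaving out each library were the alternatives. The fits were tested on simulated data.

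The genes and lists were chosen with earlier results of these data known. All 46 could be named with their levels. Fit values were to be given for the 12 genes with the lowest p between ONX-0914 and control, the 3 lowest in each other comparison, and Hspa1a, Hspa1b, Hspa5, Ddit3 and Atf4. Of the further genes, the 5 with the lowest p between ONX-0914 and control were named. Fit values of other genes were added after they were seen. Marker lists covered hippocampus, thalamus and midbrain, striatum, neocortex, choroid plexus, blood, oligodendrocytes, microglia, endothelium, astrocytes and immediate early genes. The 5 lists not described with the results had summed levels of 401 to 622 CPM (neocortex), 41.3 to 191 CPM (choroid plexus), 295 to 482 CPM (microglia), 207 to 355 CPM (endothelium) and 5480 to 6740 CPM (astrocytes) over the 7 libraries.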

Additional observations from a re-analysis of the deposited data

How the results depend on the processing

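The higher level of these genes in DMSO than in control kept its direction, with a median log2 fold change of 0.27 to 0.36 over the 30 alternatives, but the calls depended on which libraries were fitted. Against 0 calls in the 7 libraries, fitting the compared groups alone gave 11, and 4 of the further genes. Variants of that fit chosen after seeing the data called 0.67% (replicate block) to 1.55% (DESeq2) of all genes. They gave 11 and 3 with DESeq2, which had an adjusted p for only 31 of these genes and 6134 in all against 43 and 12688 in edgeR, 12 and 4 with limma voom, 11 and 4 with RLE size factors, 12 and 4 with total counts, 13 and 4 without a filter, and 7 and 1 with a replicate block. Leaving out 1 library gave 0 to 11 calls and 0 to 4 further genes. With the ONX-0914 libraries also out, it gave 8, 6, 8, 7 and 5 calls and 0 to 2 further genes.

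Between ONX-0914 and control, 1 of the genes, lower, and 1 further gene were called with DESeq2, without a filter, and against the 5 libraries without ONX-0914. Without a filter 46 and 85 were tested, and in the others 44 and 80. The further gene was higher without a filter and lower in the others. DESeq2 called 2.74% of all genes, and the share was not determined for the others. Total counts moved the median of all genes tested from 0.05 to 0.19 here and from 0.05 to 0.18 between ONX-0914 and DMSO, and the directions of Hspa5 and Ddit3 against control turned with it. The median of the 44 was 0.13 with total counts, -0.21 against the 5 libraries and -0.09 with a replicate block. The fit without ONX-0914 replicate 1, which gave the highest counts in the ranges that follow, called 51.2% of all genes. Those counts are therefore not particular to the genes described here. Leaving out 1 library gave 0 to 26 calls, 0 to 39 further genes and medians of -0.05 to 0.17. Between ONX-0914 and DMSO, 1 was called with RLE size factors, 3 with DESeq2, 2 without a filter and 1 with at least 10 counts in every library. DESeq2 called 1.82% of all genes here, and the share was not determined for the others. Further genes called were 3 with DESeq2 and 3 without a filter. The median was -0.27 with total counts and -0.55 with a replicate block. Here too the highest counts in the ranges that follow came without ONX-0914 replicate 1, where 46% of all genes were called. Leaving out 1 library gave 0 to 29 calls, 0 to 42 further genes and medians of -0.59 to -0.14.

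Of 802 values of named genes under alternatives, 13 changed sign, all from small fold changes. For Hspa1b between ONX-0914 and control these were -0.58 against the 5 libraries, -0.16 with a replicate block, -0.02 without control replicate 2, -0.02 without control replicate 3 and -0.35 without ONX-0914 replicate 2. For Hspa5 they were 0.12 with total counts, 0.01 without a filter, 0.02 with at least 10 counts, 0.04 without control replicate 1 and 0.32 without ONX-0914 replicate 2, against -0.43 without replicate 1. For Ddit3 they were 0.05 with total counts and 0.35 without ONX-0914 replicate 2, against -0.61 without replicate 1. For Atf4 between ONX-0914 and DMSO it was -0.09 when ONX-0914 replicate 2 was left out, against 0.37 when replicate 1 was. The cause was not tested.

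Nothing in the labels says that the replicate numbers pair the libraries. Deviations of same-numbered libraries from their group means correlated at -0.0963 to 0.064. In a group of 2 libraries the deviations mirror each other, so these values do not settle whether same-numbered libraries belong together. With 2 or 3 libraries per group and 2842675 counts in the smallest, low genes such as Chac1, Hspa1a, Hspb1 and Trib3 rest on few counts. A library left alone in its group is assumed to vary like the others.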
